A study of Mus musculus with 18 samples.

Results

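Histone variants and the chaperones that carry histones in the mouse egg were followed as 10 genes of 55471 gene rows in each oocyte file. The rows were chosen by symbol, and 10 of 10 symbols were found: the oocyte linker histone H1foo (newer name H1f8), the nucleoplasmin gene Npm2, the histone H3.3 genes H3f3a and H3f3b, the H2A.Z gene H2afz (H2az1), the H2A.X gene H2afx (H2ax), and the chaperone genes Hira, Nasp, Asf1a and Asf1b. The series holds 18 mouse samples in 7 groups, and the 6 libraries of MII oocytes (eggs halted in meiosis II, ready for fertilisation) hold full-length messenger RNA data. The sperm small RNA samples and the blastocyst methylation samples, among them those of the Isca2 G77S/G77S allele, were not analysed here. Of the 6 MII oocyte libraries, 3 are wild type (WT) and 3 are labelled Isca2 -/- (KO). The Isca2 product helps to build iron-sulfur clusters in mitochondria. The labels give no age, strain or number of oocytes per library for these groups. Their protocol describes embryos of gonadotropin-treated Isca2+/- females and Isca2+/- males, with cDNA amplified by a single-cell full-length kit, and does not say how the oocytes were collected. Nothing in the labels ties the replicates to separate animals, so that p-values measure the spread between libraries, which may be technical.

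An egg stores histones and their chaperones for the embryo that it may become. H1FOO takes the place of the somatic H1 linker histones on oocyte chromatin, and nucleoplasmin loosens sperm chromatin after fertilisation. H3.3 is loaded outside of DNA replication by the HIRA complex, ASF1 hands H3 and H4 to HIRA and to the replication chaperone CAF-1, and NASP keeps a soluble pool of H3 and H4. H2A.Z marks promoters and is put in by the SRCAP and EP400 complexes, and H2A.X is phosphorylated beside DNA breaks.

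The 4 promoters printed here belong to the genes on which the results turn most: the most abundant member, the pair that encodes the same H3.3 protein, and the member whose difference between groups depended most on which libraries were used. RefSeq promoter entries (GRCm38.p6) were found for 8 of the 10 members. Each sequence is the 250 bases before an annotated start, on the strand of the gene. For H3f3b, and for Nasp among the windows not printed, that start is internal. Their windows lie within the annotated locus of the gene. Capitals mark CCAAT or its reverse complement ATTGG. The windows are chr6:115944681-115944930 (plus strand) for H1foo, chr1:180813606-180813855 (minus strand) for H3f3a, chr11:116024505-116024754 (minus strand) for H3f3b and chr3:137864237-137864486 (plus strand) for H2afz.
H1foo: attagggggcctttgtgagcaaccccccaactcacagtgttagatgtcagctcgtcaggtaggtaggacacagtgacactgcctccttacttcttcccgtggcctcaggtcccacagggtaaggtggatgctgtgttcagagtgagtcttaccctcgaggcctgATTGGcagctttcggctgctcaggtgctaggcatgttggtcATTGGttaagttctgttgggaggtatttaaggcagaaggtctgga
H3f3a: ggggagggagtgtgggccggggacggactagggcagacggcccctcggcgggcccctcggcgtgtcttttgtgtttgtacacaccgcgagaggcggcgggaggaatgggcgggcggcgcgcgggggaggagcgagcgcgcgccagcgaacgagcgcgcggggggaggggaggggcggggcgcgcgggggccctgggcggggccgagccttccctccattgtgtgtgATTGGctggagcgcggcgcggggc
H3f3b: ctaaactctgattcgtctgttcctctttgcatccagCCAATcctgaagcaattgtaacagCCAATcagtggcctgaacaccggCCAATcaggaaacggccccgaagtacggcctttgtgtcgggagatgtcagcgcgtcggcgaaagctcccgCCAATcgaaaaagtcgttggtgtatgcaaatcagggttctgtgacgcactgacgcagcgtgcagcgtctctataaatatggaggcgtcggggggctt
H2afz: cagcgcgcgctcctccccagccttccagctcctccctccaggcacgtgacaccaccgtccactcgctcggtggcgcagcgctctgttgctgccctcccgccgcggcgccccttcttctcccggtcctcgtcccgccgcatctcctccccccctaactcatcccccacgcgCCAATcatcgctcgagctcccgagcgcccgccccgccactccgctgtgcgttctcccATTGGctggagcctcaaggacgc

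CCAAT was searched on both strands together with TATAAA, and the motifs did not overlap in these windows. CCAAT was present in 7 of the 8 members' windows and in 33.8% of 32851 promoter windows of the same length. H3f3b and Asf1b had 4 copies each, H1foo, H2afz and Nasp had 2 each, H3f3a and Asf1a had 1 each, and Hira had 0. TATAAA was found in the H3f3b window alone among the 8, starting 27 bases before the internal start, and in 12.4% of all windows. The H1foo window held 4 CG dinucleotides, the fewest of the 8, where H3f3a held 35, H2afz 28 and H3f3b 19, against a median of 6 over all windows. These matches describe letters in a window and not the binding of a factor.

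The 6 libraries held between 17792157 and 30240350 expected counts. WT replicate 3 stood apart from the other libraries. Its Pearson correlation with them, on log2 CPM (counts scaled to library size) across genes, was 0.881 to 0.903, while the other pairs lay between 0.93 and 0.96. The 12 macrophage and immune markers summed to 1332 CPM in it, with 12 of 12 detected, and to between 5.93 and 10.2 CPM in the other 5 libraries, where C1qa and C1qc were at 0. The 12 granulosa and cumulus markers summed to 70.8 to 85.1 CPM in WT and 77.2 to 164 CPM in the libraries labelled KO, with Foxl2 at 0 in all WT libraries and Amh detected in KO replicate 1 alone. Cyp19a1 and Nr5a2 made up most of these sums. The other 10 summed to 10.3, 0.44 and 11.9 CPM in WT and 8.24, 29.2 and 100.3 CPM in KO, a split made after the values were seen. Of the 9 granulosa markers tested, 3 (Inhbb, Hsd17b1 and Fshr) had WT wholly below KO and 0 had WT wholly above. Among all tested genes 6.48% and 5.96% separated in these directions. On the log2 scale 2 of the 9 lay below 0, Cyp19a1 (-0.07) and Star (-0.73). Inhbb, an inhibin and activin subunit gene, had 0.04, 0 and 0 CPM in WT and 2.15, 4.87 and 13.0 CPM in KO (adjusted p = 0.210, edgeR). Without WT replicate 3 Inhbb was called higher (adjusted p = 0.026, edgeR), as were 0.574% of all tested genes. The 10 oocyte markers were detected in all 6 libraries. They summed to 12160 CPM in WT replicate 3 and to 6946 to 8747 CPM in the other 5 libraries. In WT replicate 3 Zp2 stood at 5.98, Zp3 at 4.05 and Zp1 at 2.79 times the mean of the other WT libraries. Gdf9 stood at 0.95 and Mos at 0.98 times that mean. Isca2 itself had 14, 11 and 152 expected counts in WT and 53, 56 and 120 in KO (log2 fold change 0.59, SE 0.89, adjusted p = 0.907, edgeR). Without WT replicate 3 it stood 5.58 times higher in KO (2.48 on the log2 scale, SE 0.55, adjusted p = 0.0969, edgeR), with WT wholly below KO. Isca2 RNA was thus not lower in the libraries labelled KO, so these counts do not bear out the label. A count per gene does not show the allele and cannot settle the genotype. Every direction is drawn between libraries as they were labelled. Differences between the groups are given with and without WT replicate 3.

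Median levels of the 10 genes ran from 11660 down to 1.39 TPM, a unit scaled for transcript length in which levels of different genes can be compared. H1foo (ENSMUSG00000042279, chr6:115944931-115950242 in GRCm38.p6, as are all loci here) was the most abundant, with 11574, 11960 and 10323 TPM in WT replicates 1, 2 and 3 and 11870, 11291 and 11746 TPM in KO replicates 1, 2 and 3. It took 1.03% to 1.20% of all TPM of a library, and the 10 genes together took 1.65% to 1.84%. WT replicate 3 had the lowest H1foo value, and the range of the KO libraries lay within that of WT.

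H3f3b (ENSMUSG00000016559, chr11:116021961-116026039) was next, at 3182, 3667 and 2620 TPM in WT and 3166, 2796 and 3289 TPM in KO. Its partner H3f3a (ENSMUSG00000060743, chr1:180802560-180813605) had a median of 449 TPM, with 451, 346 and 837 TPM in WT and 389, 448 and 453 TPM in KO. The H3.3 message of the egg thus came mostly from H3f3b, which exceeded H3f3a by 7.06, 10.6 and 3.13 times in WT and by 8.14, 6.24 and 7.26 times in KO.

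Npm2 (ENSMUSG00000047911, chr14:70647296-70661802) followed with a median of 917 TPM (774 to 1093), and its WT libraries lay above its KO libraries in TPM too. The ASF1 paralogs were close to each other, Asf1b (ENSMUSG00000005470, chr8:83955694-83970195) with a median of 708 TPM (645 to 815) and Asf1a (ENSMUSG00000019857, chr10:53596961-53609225) with 553 TPM (530 to 741), and Asf1b was above Asf1a in 6 of 6 libraries. Nasp (ENSMUSG00000028693, chr4:116601052-116628676) had a median of 174 TPM (130 to 177) and H2afz (ENSMUSG00000037894, chr3:137864487-137866922) one of 151 TPM (96.3 to 256). H2afx (ENSMUSG00000049932, chr9:44334715-44336077) had 27.7, 27.9 and 16.7 TPM in WT and 24.2, 22.7 and 22.2 TPM in KO. Hira (ENSMUSG00000022702, chr16:18876750-18970309) was the lowest at a median of 1.39 TPM (1.11 to 2.97), above 39.9% to 51.4% of the detected genes of a library.

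In the order of the medians, H1foo and H3f3b, H3f3b and Npm2, H3f3a and Nasp, H2afz and H2afx, and H2afx and Hira were neighbours whose ranges over the 6 libraries did not overlap. The ranges of Npm2, Asf1b, Asf1a and H3f3a overlapped from each gene to the next, as did those of Nasp and H2afz. Npm2 was above Asf1b in 5 of 6 libraries, Asf1a above H3f3a in 5 of 6 and Nasp above H2afz in 4 of 6. The exception for the Asf1a and H3f3a pair was WT replicate 3.

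**Figure D1:**
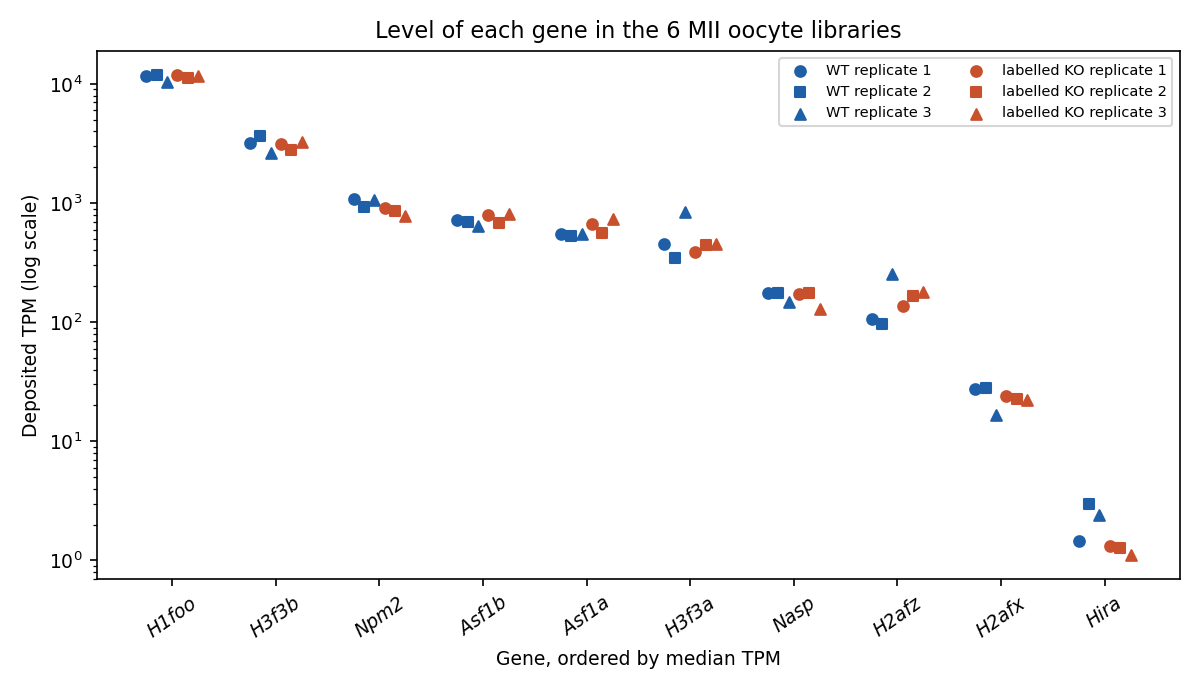
Deposited TPM (log axis) of each of the 10 genes, ordered by median, in 3 WT libraries (blue) and 3 libraries labelled KO (red), with 1 point per library. H1foo sits at 10323 TPM or more in each library and Hira between 1.11 and 2.97 TPM, and the WT replicate 3 triangles of H3f3a and H2afz lie above the other points of their genes.

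H1foo was nearly the sole linker histone message captured in these libraries. It made up 99.705%, 99.714% and 99.691% of the summed TPM of 11 linker histone genes in WT replicates 1, 2 and 3, and 99.761%, 99.738% and 99.829% in KO replicates 1, 2 and 3. All 3 KO shares lay above the WT shares, by 0.073 percentage points on average (exact permutation test over libraries, two-sided p = 0.1, the smallest that 3 against 3 allows). The difference was 0.067 points without WT replicate 3 (exact permutation p = 0.2). The other linker genes with a median of at least 1 TPM were H1f1 (15.4 TPM), the replacement histone gene H1f0 (11.5 TPM) and H1f2 (1.06 TPM). H1f2 reached 8.16 TPM in WT replicate 3 and stayed between 0.16 and 1.66 TPM elsewhere. H1f6, H1f7 and H1f9, known from male germ cells, were at 0 TPM in all 6 libraries. Whether the cDNA kit captured each linker histone message equally well was not tested, so the shares describe captured RNA.

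None of the 10 genes differed between the groups after adjustment over the 13680 genes tested with edgeR, where 0.0146% of all genes were called. All 10 members passed the filter on low counts. At an unadjusted p under 0.05, 1 member was lower and 0 were higher, against 3.3% lower, 2.89% higher and 6.19% in either direction among all genes. The members' median log2 fold change (KO over WT) was 0.045, and that of all tested genes -0.037. Of the members 4 lay below 0, as did 54.6% of all genes. DESeq2 called 0 members in either direction, where it called 0.603% of all genes higher and 0.149% lower. With WT replicate 3 left out, edgeR called 0 members and 0.651% of all genes (0.574% higher and 0.0779% lower). At an unadjusted p under 0.05, 1 member was then higher and 0 lower, against 7.68% and 3.89% of all genes and 11.6% in either direction. In that fit 5 members lay below 0, as did 48.5% of all genes. Less RNA per oocyte and fewer oocytes cannot be told apart in such bulk libraries, since counts are relative to each library.

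For H1foo the libraries had 7589, 8398 and 6306 CPM in WT and 8139, 7711 and 8588 CPM in KO, with overlapping groups. The log2 fold change was 0.13 (95% interval -0.23 to 0.49, adjusted p = 0.872, edgeR), and 0.03 (-0.17 to 0.23) without WT replicate 3. WT replicate 3 was the lowest library for H1foo, so the narrower interval without it is not a closer bound on the difference.

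Npm2 was the member that was lower in the libraries labelled KO at an unadjusted p under 0.05. It had 410, 377 and 478 CPM in WT and 357, 338 and 322 CPM in KO. Every KO library lay below every WT library, a separation that 5.96% of all tested genes showed in that direction. Npm2 in KO was at 0.804 times its WT level, or -0.32 on the log2 scale (SE 0.12, adjusted p = 0.766, edgeR). With its highest library, WT replicate 3, left out, the value was -0.22 (95% interval -0.44 to 0.01, adjusted p = 0.449, edgeR), and the groups were still apart, as in 13.1% of all genes.

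The abundance-weighted transcript length that RSEM reports for Npm2, which has 2 annotated transcripts, was 888 bases in WT replicate 3 and between 736 and 745 bases in the other 5 libraries. That library therefore held a different mix of reads assigned to the 2 Npm2 transcripts. For H1foo, with 5 transcripts, the same length stayed between 1104 and 1106 bases in all 6 libraries.

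**Figure D2:**
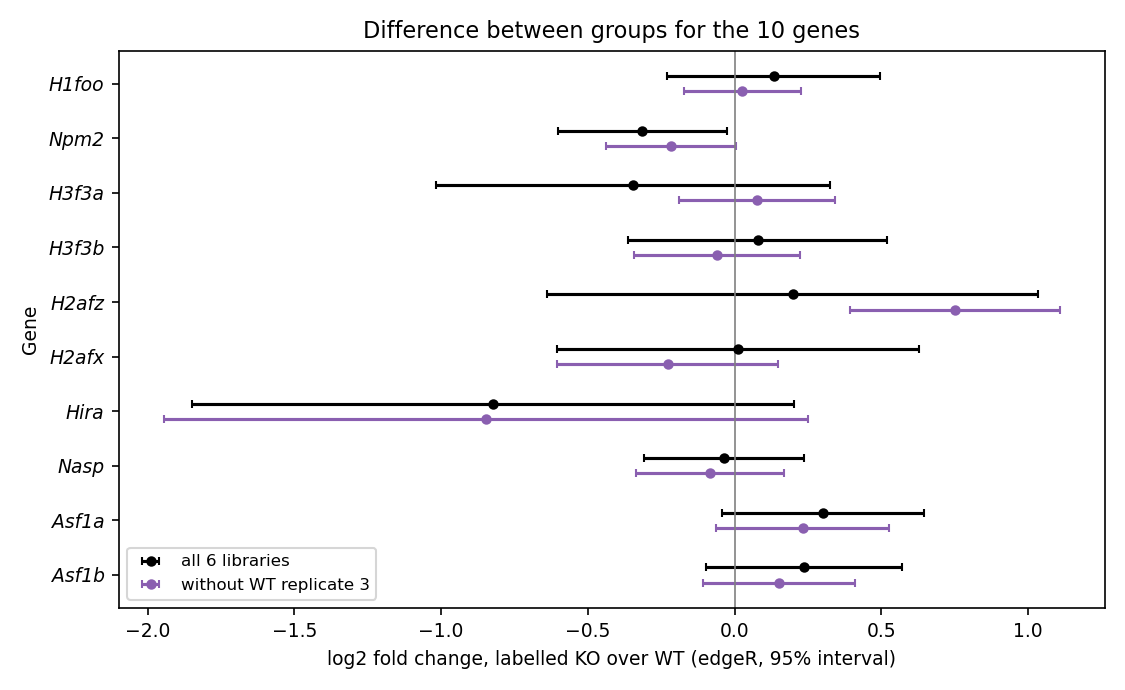
Log2 fold change of the libraries labelled KO over WT for each of the 10 genes, from the edgeR fit of all 6 libraries (black) and without WT replicate 3 (purple). Bars are 95% intervals of single genes, unadjusted, and the interval of H2afz moves from -0.64 to 1.04 with all libraries to 0.40 to 1.11 without WT replicate 3.

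The H3.3 genes did not pass the test, and the sign of each depended on WT replicate 3. H3f3a had 369, 295 and 672 CPM in WT and 329, 358 and 365 CPM in KO. The WT values spanned the KO values, and WT replicate 3 was 2.02 times the mean of the other WT libraries. The log2 fold change was -0.35 (95% interval -1.02 to 0.33), and 0.08 (-0.19 to 0.34) without that library. H3f3b had 3891, 4749 and 3134 CPM in WT and 4100, 3629 and 4707 CPM in KO, and here WT replicate 3 was the lowest library. Its log2 fold change was 0.08 (95% interval -0.36 to 0.52), and -0.06 (-0.34 to 0.22) without that library. It was also below 0, at -0.02, on the log2 TPM scale and without KO replicate 3.

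The share of H3f3a in the summed TPM of the H3.3 genes was 12.4%, 8.63% and 24.2% in WT and 10.9%, 13.8% and 12.1% in KO. The difference of KO from WT was -2.80 percentage points (15.1% ± 8.13 against 12.3% ± 1.44, SD, n = 3 each, exact permutation p = 0.8, two-sided), and 1.76 without WT replicate 3 (exact permutation p = 0.5). The processed copies H3f3a-ps1 and H3f3a-ps2 had at most 2 and 17 counts in a library, against 6074 to 19489 for H3f3a, and the antisense gene H3f3aos had at most 3. H3f3c, a further gene of the H3.3 kind, had 5 to 27 counts. Reads that fit a gene and a copy of it are divided by RSEM, so that small shifts between them cannot be resolved.

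H2afz, which encodes H2A.Z, was the member whose value depended most on the choice of libraries. It had 62.4, 58.8 and 146 CPM in WT replicates 1, 2 and 3, and 83.8, 103 and 119 CPM in KO replicates 1, 2 and 3. WT replicates 1 and 2 lay below all KO libraries, and WT replicate 3 lay above all of them. With 6 libraries the H2afz difference was 0.20 on the log2 scale (SE 0.36, adjusted p = 0.926, edgeR). In the 5 libraries without WT replicate 3 it was 0.75 (SE 0.16, 95% interval 0.40 to 1.11), which is 1.68-fold, and it missed the threshold with an adjusted p of 0.0836 in edgeR, where 0.574% of all genes were called higher. DESeq2 in the same 5 libraries called H2afz higher (adjusted p = 0.000648, 3.02% of genes called higher), and limma-voom did not (adjusted p = 0.168, 0.0354% called higher and 0.0425% lower). Without WT replicate 2 the edgeR value was -0.02. The macrophage and immune markers given above were also high in WT replicate 3. In the other 5 libraries they summed to 5.93 to 10.2 CPM, while H2afz ran from 58.8 to 119 CPM. The oocyte markers Zp2 (2135 CPM), Zp3 (1250 CPM) and Nlrp5 (1602 CPM) were also highest in WT replicate 3. So were Zp1, Bmp15, Ooep, Padi6 and Figla, while Gdf9 and Mos were not. Gdf9 had 2994.5 CPM in WT replicate 3, close to the 3013.5 CPM of WT replicate 2. The part of any of these markers in the H2afz level was not tested.

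The other H2A.Z gene, H2az2 (H2afv), had 8.41, 9.05 and 9.45 CPM in WT and 12.0, 14.9 and 18.8 CPM in KO. Its groups did not overlap, as in 6.48% of all tested genes in that direction, and WT replicate 3 lay with the other WT libraries. H2az2 differed by 0.77 on the log2 scale (SE 0.24, adjusted p = 0.766, edgeR) and by 0.81 when WT replicate 3 was left out (adjusted p = 0.235). Most of the granulosa markers tested rose in order over KO replicates 1, 2 and 3, but not all. Hsd17b1 had 1.095, 0 and 0.48 CPM in WT and 2.15, 12.5 and 20.1 CPM in KO. Inhba had 0.39, 0.24 and 5.14 CPM in WT and 1.66, 5.09 and 20.7 CPM in KO. Cyp19a1 went the other way, with 60.3, 58.4 and 52.0 CPM in KO, and Fshr had 1.31, 0.73 and 4.90 CPM there. The part of these markers in the H2az2 and H2afz values was not tested. Srcap, the ATPase of a complex that deposits H2A.Z, had 7.32, 12.0 and 13.8 CPM in WT and 4.25, 2.35 and 2.01 CPM in KO. All KO libraries were below all WT libraries for Srcap, at -1.94 on the log2 scale (SE 0.41, adjusted p = 0.504, edgeR), and at -1.75 (adjusted p = 0.108) without WT replicate 3. DESeq2 called it lower in all 6 libraries (adjusted p = 0.00389, 0.149% of genes called lower) and without WT replicate 3 (adjusted p = 0.00868, 0.538% called lower), and limma-voom did not (adjusted p = 0.687 and 0.169).

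**Figure D3:**
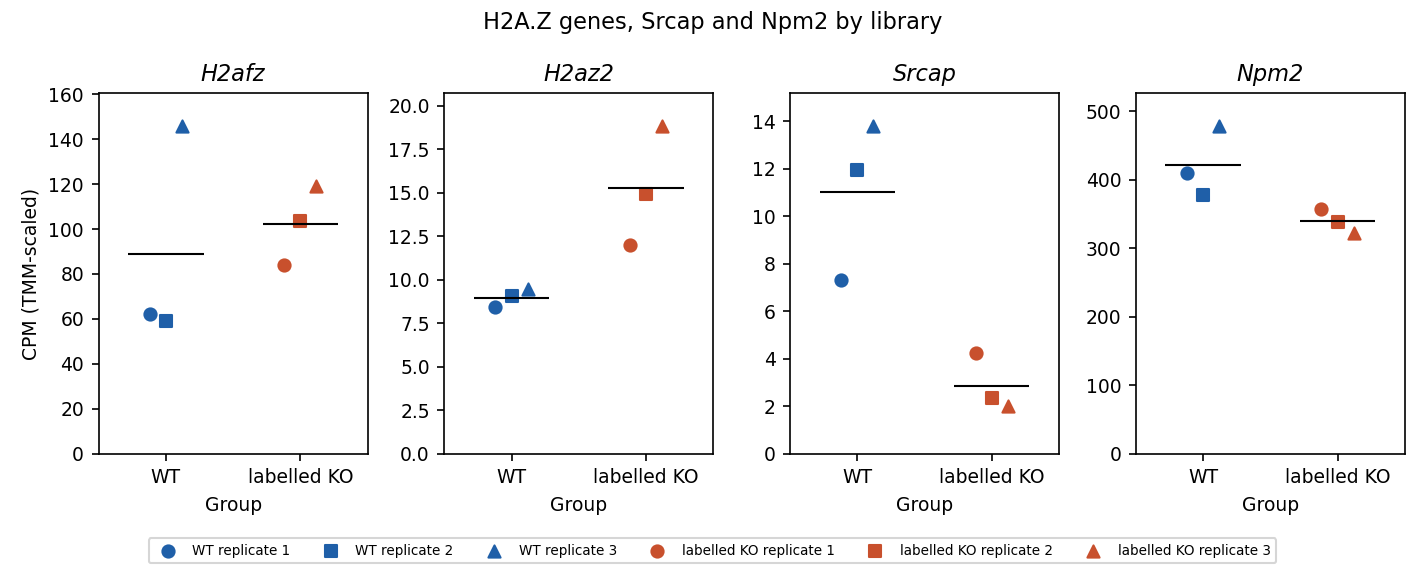
CPM on TMM-scaled library sizes of H2afz, H2az2, Srcap and Npm2 in each of the 3 WT libraries (blue) and the 3 libraries labelled KO (red), with 1 point per library and a line at each group mean. Each axis starts at 0, and the WT replicate 3 triangle of H2afz, at 146 CPM, lies above the KO points, while the groups do not overlap for the other 3 genes.

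H2afx had 24.1, 25.9 and 13.6 CPM in WT and 22.0, 20.5 and 21.6 CPM in KO. Its group means were nearly equal (log2 fold change 0.01, 95% interval -0.60 to 0.63), since WT replicate 3 lay below the KO libraries and the other WT libraries above them. With WT replicate 3 left out it was -0.23 (-0.60 to 0.15). The sign of the H2afx difference also turned, to -0.03, when counts were scaled by library totals.

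Among the chaperones, Asf1a had 464, 500 and 415 CPM in WT and 586, 471 and 643 CPM in KO. The groups overlapped through KO replicate 2, and the difference was 0.30 on the log2 scale (SE 0.15, adjusted p = 0.766, edgeR). Asf1b had 845, 883 and 716 CPM in WT and 968, 833 and 1078 CPM in KO (log2 fold change 0.24, SE 0.14, adjusted p = 0.787, edgeR). In both genes KO replicate 3 was the highest and WT replicate 3 the lowest library. With WT replicate 3 left out the values were 0.23 (95% interval -0.06 to 0.53) for Asf1a and 0.15 (-0.11 to 0.41) for Asf1b.

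The share of Asf1a in the summed TPM of the ASF1 paralogs was 43.3%, 43.1% and 45.9% in WT and 46.0%, 45.1% and 47.6% in KO. The difference of KO from WT was 2.17 percentage points (44.1% ± 1.54 against 46.3% ± 1.28, SD, n = 3 each, exact permutation p = 0.2, two-sided). Without WT replicate 3 it was 3.06, with all KO shares above both WT shares (exact permutation p = 0.1, the smallest that 2 against 3 allows). The helicase gene Mcm9 overlaps the Asf1a locus and had 559 to 896 counts, against 8407 to 18230 for Asf1a.

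**Figure D4:**
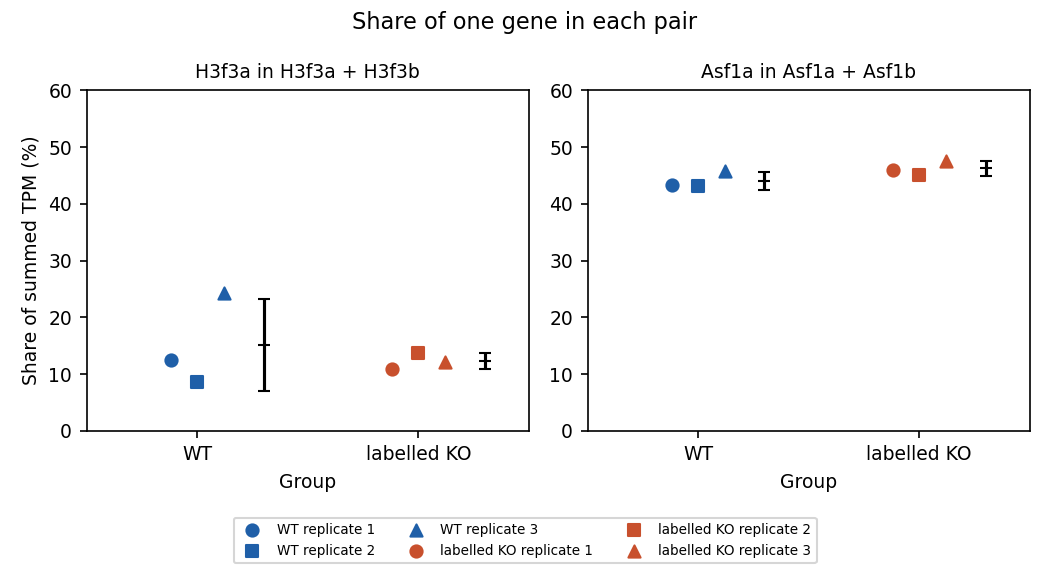
Share (percent of summed TPM) of H3f3a in the H3.3 gene pair and of Asf1a in the ASF1 pair, with 1 point per library and the mean ± SD of each group (n = 3) beside the points. The H3f3a share of WT replicate 3, 24.2%, lies above the other 5 libraries (8.63% to 13.8%), and the Asf1a shares lie between 43.1% and 47.6%.

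Nasp was the chaperone gene with the difference closest to 0. It had 245, 238 and 218 CPM in WT and 237, 244 and 203 CPM in KO. Its log2 fold change was -0.04 (95% interval -0.31 to 0.24, adjusted p = 0.960, edgeR), -0.085 without WT replicate 3 and 0.04 without KO replicate 3. The copy Nasp-ps1 had 0 counts in all 6 libraries.

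Hira had 57, 85 and 91 counts in WT and 28, 33 and 69 in KO, the lowest depth of the 10 genes. In CPM these were 2.50, 4.13 and 3.14 in WT and 1.23, 1.85 and 2.43 in KO, so that every KO library lay below every WT library, if narrowly for WT replicate 1 and KO replicate 3. Hira differed by -0.82 on the log2 scale (SE 0.44, 95% interval -1.85 to 0.20, adjusted p = 0.767, edgeR), and by -0.85 (SE 0.49) when WT replicate 3 was left out. Its interval holds 0 and is the widest of the 10 genes, at the lowest counts. The length assigned to Hira by RSEM, which has 9 annotated transcripts, ranged from 1405 to 2795 bases between libraries.

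In all, 2 of the 10 members, Npm2 and Hira, had WT libraries wholly above the KO libraries, and 0 had them wholly below, where 5.96% and 6.48% of all tested genes separated in these directions. Leaving out WT replicate 3, the counts were 3 (Npm2, H2afx and Hira) and 1 (H2afz), where 13.1% and 15.4% of all tested genes separated in these directions. WT replicate 3 was the highest library for 3 members (Npm2, H3f3a and H2afz) and the lowest for 5 (H1foo, H3f3b, H2afx, Asf1a and Asf1b).

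A list of 51 further histone variant and chaperone genes was read from the same fit. Of these, 43 passed the count filter, 0 were called in either direction by edgeR, and at an unadjusted p under 0.05 there were 2 higher and 1 lower, beside 2.89% and 3.3% of all tested genes. The list's median log2 fold change was -0.07, beside -0.037 over all tested genes, and 26 of the 43 lay below 0, beside 54.6% of all. The groups did not overlap for 3 genes with WT above KO and for 5 with WT below KO, beside 5.96% and 6.48% of all. With WT replicate 3 left out, edgeR still called 0 of the 43, 2 were higher and 2 lower at an unadjusted p under 0.05 (7.68% and 3.89% of all), and 10 and 7 separated (13.1% and 15.4% of all). Apart from H2az2, the genes with the smallest p above 0 were Set, a histone chaperone and phosphatase inhibitor (0.45, SE 0.15), Rbbp4, a subunit of CAF-1 (0.25, SE 0.13) and the centromeric histone gene Cenpa (0.18, SE 0.12). Leaving out WT replicate 3 gave 0.45, 0.23 and 0.13.

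Set had 36.3, 49.2 and 43.0 CPM in WT and 55.9, 56.7 and 62.9 CPM in KO, without overlap. The part of the granulosa markers in the Set values was not tested either. Below 0, Srcap was followed by Oip5, which serves CENP-A loading (-0.89, SE 0.47), the remodeller gene Ino80 (-0.34, SE 0.20) and the CAF-1 subunit gene Chaf1b (-0.82, SE 0.52). These stood at -0.46, -0.42 and -0.52 when WT replicate 3 was left out. The smallest adjusted p over the list was that of Srcap in edgeR, 0.504 with 6 libraries and 0.108 without WT replicate 3.

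Genes of HIRA's partner proteins were read at higher levels than Hira. Cabin1 had 67.4 ± 2.68 CPM in WT and 59.0 ± 7.21 CPM in KO (SD, n = 3 each, log2 fold change -0.19, and -0.18 without WT replicate 3), and Ubn1 had 63.4 ± 6.63 and 58.5 ± 14.04 CPM (-0.12 and -0.17). Per length the medians were 13.1 TPM for Cabin1 and 13.3 TPM for Ubn1, beside 1.39 TPM for Hira. Daxx, the chaperone of a separate H3.3 route, had 12.8 ± 1.72 and 11.6 ± 1.32 CPM (-0.15 and -0.04). The germ cell variant genes H2ac1 and H2bc1 had medians of 79.0 and 3.84 TPM, with log2 fold changes of -0.30 (SE 0.31) and 0.50 (SE 0.94), the latter -0.63 with library weights. Without WT replicate 3 they stood at -0.54 and 0.21.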

How the data were processed

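RNA of 6 MII oocyte libraries was analysed. The authors deposited expected counts, TPM and FPKM for each Ensembl gene, per the file headers. FPKM was not used. The submitters' processing notes name Trim Galore 0.4.5, STAR 2.6.1c, RSEM 1.3.1, DESeq2 1.42.1 and the mm10/GRCm38 build. The annotation release and strand setting are not given in the sources used here. Symbols matched 55144 of 55471 IDs. Sperm small RNA and blastocyst methylation samples were not analysed here.

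Expected counts were rounded and tested with edgeR 4.0.16 in R 4.3.3 (filterByExpr, TMM, quasi-likelihood test, Benjamini-Hochberg adjustment over all tested genes, threshold 0.05), genotype being the only term. The procedure was checked on simulated counts with larger changes than those of the members and without a deviant library. That check does not bear on small differences. SE is the log2 fold change divided by the root of F. Alternatives used DESeq2 1.42.0, limma 3.58.1, other scalings, filters and pseudocounts, and left out each library. The members and lists were chosen with earlier results of these data known. The text names the 10 members, the 4 further list genes with the smallest p in each direction, 5 chosen by role, linker genes of at least 1 TPM and copies of members. Lengths, overlapping genes, H3f3c, H3f3aos and Ep400 were added after the values were seen.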

Additional observations from a re-analysis of the deposited data

How the results depend on the processing

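Over 18 alternatives none of the 10 members was called, except H2afz by DESeq2 without WT replicate 3, which is 1 member higher (log2 fold change 0.75). That combination, and limma-voom without the same library, were chosen after seeing the data. Npm2 and Hira stayed below 0, and H1foo, Asf1a and Asf1b above 0, in all 18. H3f3a turned to 0.08 without WT replicate 3 with each of the 3 tools (range without 1 library -0.56 to 0.08). H3f3b turned to -0.01 with library weights, to -0.02 with either TPM pseudocount, and ranged from -0.06 to 0.24 without 1 library (DESeq2 -0.06 and limma-voom -0.05 without WT replicate 3). H2afx turned to -0.03 with library totals and with either TPM pseudocount, to -0.15 with library weights, and ranged from -0.23 to 0.18 without 1 library (limma-voom -0.22). H2afz ranged from -0.02 to 0.75 and Nasp from -0.09 to 0.04 when 1 library was left out of the edgeR fit (Nasp 0.01 without WT replicate 1, and -0.10 with limma-voom without WT replicate 3). H1f2 was 0.27 with library weights and -2.64 to 0.04 without 1 library. H2bc1 was -0.63 with library weights, -0.20 with a TPM pseudocount of 0.1 and 0.10 to 1 without 1 library (limma-voom without WT replicate 3 -0.12). Ubn1 ranged from -0.26 to 0.07. The share of H3f3a ranged from -6.03 to 1.76 percentage points without 1 library. The cause of these changes was not tested.

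Over all genes, edgeR called 0 higher and 2 lower. DESeq2 called 81 and 20, limma-voom with library weights 2 and 6, and limma on log2 TPM 5 and 4 (pseudocount 1) and 9 and 3 (pseudocount 0.1). Without WT replicate 3 edgeR called 81 and 11, DESeq2 426 and 76 and limma-voom 5 and 6, and without KO replicate 1 edgeR called 0 and 1, so that leaving out 1 library gave 0 to 81 higher and 1 to 11 lower. In the further list DESeq2 called 1 gene lower, Srcap, with 6 libraries and without WT replicate 3. Same-numbered WT and KO libraries did not deviate together (r = 0.063, -0.111 and 0.008 for replicates 1, 2 and 3), and 2 of 6 libraries correlated best with their own number. With the replicate number as a block, 0 genes were called higher and 2 lower over all genes, and 0 members. For the shares of H1foo, H3f3a and Asf1a (0.0732, -2.80 and 2.17 percentage points) the paired exact sign-flip permutation p was 0.25, 0.75 and 0.25, with 0.25 the smallest that 3 pairs allow. Counts limit Hira most, at 28 to 91 per library.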
